A study of Mus musculus with 12 samples.

Results

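Haemoglobin and red cell genes were read in the brain by the probes of Hba-a1 (ILMN_1212702), Hbb-b1 (ILMN_1235372) and Alas2 (ILMN_2675874), every probe that carries one of these symbols in the deposited array tables: 3 genes of 18097, with 1 probe each, or 3 probes of 25697. The arrays were Illumina Mouse Ref-8 beadchips of hippocampus and cortex from male 3×TgAD mice, which carry mutant human APP and tau transgenes under the neuronal Thy1 promoter and a mutant presenilin 1 knock-in. The mice were 14 months old when the study began and 18 months old at harvest. The AMI group drank amitriptyline-hydrochloride at 100 µg/g body weight for 4 months and the vehicle group drank water, and both were injected with BrdU. Each tissue had 3 AMI and 3 vehicle arrays, 12 in all. Brains were dissected on ice after isoflurane and decapitation, and the methods do not mention perfusion. Which mouse gave which sample was not stated, so p-values measure the spread between these samples, which may be partly technical.

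Haemoglobin is a tetramer of alpha and beta chains that each hold a heme group. Adult mouse alpha chains are encoded by Hba-a1 and its copy Hba-a2, and beta chains by the genes of the beta-globin cluster. Alas2 is the erythroid enzyme that starts heme synthesis, while Alas1 does so in other cells. Circulating red cells have no nucleus, but young ones, the reticulocytes, still hold globin and Alas2 transcripts, and unperfused brain holds blood in its vessels. In bulk tissue, fewer red cells and less RNA per red cell cannot be told apart. Some neurons are also known to express globin genes.

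The Hba-a1 and Alas2 probes are shown because they define what was measured. Both are 50 bases long and lie in coding sequence, from base 175 of the Hba-a1 transcript and base 1733 of the Alas2 transcript, and each has 1 reading frame without a stop.
Hba-a1 probe: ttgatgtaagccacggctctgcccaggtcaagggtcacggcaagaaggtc
Alas2 probe: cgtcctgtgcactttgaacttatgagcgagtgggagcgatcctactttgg

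No probe on the array is annotated to Hba-a2, a near-identical copy, so the Hba-a1 signal may include both. In RefSeq (GRCm38.p6), Hba-a1 lies at chr11:32283672-32284486 and Alas2 at chrX:150547417-150570622. The Hbb-b1 probe starts at base 539 of its transcript, and RefSeq now gives the transcript named for that probe to Hbb-bt, at chr7:103812524-103813923. The beta-globin signal is therefore called Hbb-b1 as in the files, without a claim about which adult beta gene gave it.

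The 110 bases before the start of transcription are shown for the 3 genes, from RefSeq, as a description of the genes. Whether they bear on the signals of the 3 probes was not tested. Capitals mark the letters CCAAT, the letters CACCC, the TATA-type letters ATAAA or ATAAG, and the GATA-type letters AGATAA or TGATAA, each on either strand. In Alas2 the ATAAA and AGATAA matches overlap.
Hba-a1, chr11:32283562-32283671, plus strand: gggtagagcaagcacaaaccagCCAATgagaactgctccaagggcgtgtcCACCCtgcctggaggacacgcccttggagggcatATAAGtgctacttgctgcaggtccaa
Hbb-bt, chr7:103813924-103814033, minus strand: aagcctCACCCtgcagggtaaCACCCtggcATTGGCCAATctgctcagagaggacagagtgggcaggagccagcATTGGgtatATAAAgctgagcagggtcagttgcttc
Alas2, chrX:150547307-150547416, plus strand: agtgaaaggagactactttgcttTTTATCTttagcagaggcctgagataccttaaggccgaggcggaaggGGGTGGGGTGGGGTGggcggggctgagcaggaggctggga

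Over the 250 bases searched before each start, CCAAT was present in Hba-a1 and Hbb-bt and not in Alas2, and 33.8% of 32851 promoters hold it. CACCC was present in all 3, as in 52.0% of promoters. ATAAA or ATAAG was also present in all 3, as in 49.5% of promoters. AGATAA or TGATAA was present in Hba-a1 and Alas2 and not in Hbb-bt, and 16.6% of promoters hold it. The promoter of Hbb-bs, another adult beta gene, held all 4 kinds of letters, AGATAA included. These are matches of letters and were not tested as sites. The RefSeq promoters of Hba-a1 and Hba-a2 were identical over the 297 bases that could be aligned after a shift of 3 bases.

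The 3 probes were detected (detection p of 0.05 or less, from the scanner software) on all 12 arrays. Per array 49.0% to 51.7% of probes were detected, and the median signal of undetected probes was 52.2 to 73.2. Arrays differed in brightness: the median signal of detected probes was 162 to 330 in the hippocampus and 193 to 326 in the cortex, where AMI replicate 2 was the brightest. Hippocampal AMI replicate 3 stood apart for all 3 probes, so results that rest on it are given with and without it. The tissues' tables were exported separately, so tissue and export cannot be told apart. Among a list of neuronal markers, 7 of the 10 genes on the array were detected often enough to be tested in each tissue.

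Hba-a1, the alpha chain, gave signals far above background in both tissues. In the hippocampus its deposited signal, an intensity without background subtraction, was 5984, 7013 and 26514 on AMI replicates 1, 2 and 3. On the vehicle arrays of the hippocampus it was 3855, 6403 and 9784. AMI replicate 3 was the highest, 2.71 times the next array, and the signals of the other AMI arrays fell within the range of the vehicle arrays. After z normalization the levels were 6.16, 4.67 and 6.75 on the AMI arrays and 5.20, 4.92 and 5.65 on the vehicle arrays. On this scale AMI replicate 1 lay above and AMI replicate 2 below all vehicle arrays. Without normalization and with each of the other 3 normalizations, vehicle replicate 3 came next after AMI replicate 3.

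In the cortex Hba-a1 gave 3731, 10353 and 2512 on the AMI arrays and 4396, 6166 and 4910 on the vehicle arrays. The AMI arrays held both the highest and the lowest cortical signal, 4.12-fold apart. The highest lay on the brightest cortical array. After z normalization, in which each array's log2 signals are brought to a common mean and SD, cortical vehicle replicate 3 was highest (5.88) and AMI replicate 2 (5.61) lay below vehicle replicates 2 and 3. AMI replicate 2 was the highest on the unnormalized scale and with each of the other 3 normalizations.

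Hbb-b1, the beta chain, was also above background on every array, though levels of different probes are not comparable. Its hippocampal signals were 237, 259 and 754 on the AMI arrays and 168, 184 and 232 on the vehicle arrays. All 3 AMI signals exceeded the vehicle signals before normalization, but after it AMI replicate 2 (0.55 on the normalized log2 scale) fell below vehicle replicate 3 (0.61), so the groups overlapped. Its cortical signals were 135, 291 and 116 on the AMI arrays and 149.7, 153 and 165 on the vehicle arrays, with vehicle inside the AMI range.

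Alas2 lay near the background on most arrays. In the hippocampus it gave 89.3, 120.0 and 402 on the AMI arrays and 86.0, 89.2 and 113 on the vehicle arrays. AMI replicate 3 had 7.16 times the median signal of that array's undetected probes, against 1.43 to 1.90 times on the other 5 hippocampal arrays. In the cortex it gave 92.9, 189 and 89.1 on the AMI arrays and 98.3, 122 and 164 on the vehicle arrays, and the groups overlapped.

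**Figure D1:**
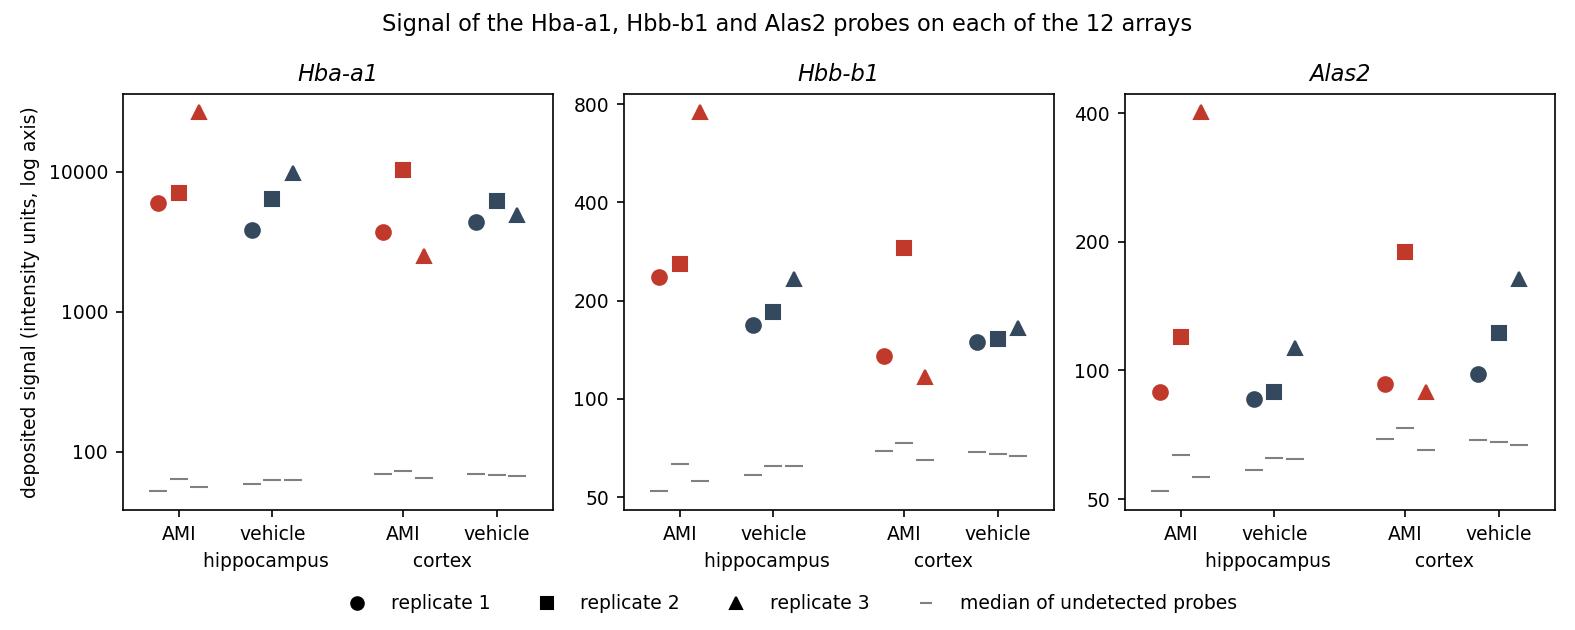
Deposited signal (log axis) of Hba-a1, Hbb-b1 and Alas2 on each array by tissue and treatment, with AMI in red and vehicle in dark blue, the symbol giving the replicate and grey dashes the median of that array's undetected probes. Hippocampal AMI replicate 3 is the highest point of every panel, at 26514, 754 and 402.

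Hippocampal AMI replicate 3 was the highest of the 6 hippocampal arrays for all 3 probes on the unnormalized scale and after z normalization, quantile normalization, median centring and neqc. After z normalization the gap to the next array was 0.59 (log2) for Hba-a1, 0.93 for Hbb-b1 and 1.61 for Alas2. On the other scales it was 1.30 to 1.53 for Hba-a1, 0.79 to 1.54 for Hbb-b1 and 1.42 to 1.94 for Alas2. AMI replicate 3 was the highest for 19.0% of all tested hippocampal probes, the background against which 3 of 3 is to be read. In the cortex the highest array depended on the scale: AMI replicate 2 led for Hbb-b1 on all 5 scales, but for Alas2 it led only before normalization. Cortical AMI replicate 2 was the highest for 29.3% of tested cortical probes after z normalization, and of the 3 probes for Hbb-b1 alone.

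In the hippocampus none of the 3 probes passed the test for AMI against vehicle (limma on z-normalized log2 signals, Benjamini-Hochberg adjusted p under 0.05). Over all 13163 tested hippocampal probes 0% were called, and 309 (2.35%) had an unadjusted p under 0.05, against 483 by the methods' t-test. The log2 difference of Hbb-b1 was 0.86, or 1.82-fold (95% confidence interval 0.10 to 1.63, SE 0.34, n = 3 and 3; limma adjusted p = 0.9996), with 2 of 3 AMI arrays above all vehicle arrays. Its unadjusted p in this limma fit was 0.0315. For Alas2 it was 0.76 (-0.15 to 1.67; limma adjusted p = 0.9996). For Hba-a1 it was 0.60 (-0.43 to 1.64; limma adjusted p = 0.9996). Of the 3, only Hbb-b1 had an unadjusted p under 0.05.

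Same-numbered AMI and vehicle arrays of the hippocampus deviated together over all probes, and with the replicate number as a block each of the 3 probes had an unadjusted limma p under 0.05 (0.00246 for Hbb-b1, 0.0172 for Alas2 and 0.0297 for Hba-a1), as did 8.08% of tested probes. None passed after adjustment (limma adjusted p = 0.566, 0.608 and 0.609). AMI minus vehicle within replicates 1, 2 and 3 was 0.74, 0.30 and 1.55 (log2) for Hbb-b1 and 0.26, 0.30 and 1.71 for Alas2, above 0 in each pair. For Hba-a1 it was 0.96, -0.25 and 1.1.

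Without hippocampal AMI replicate 3 these log2 differences were 0.44 for Hbb-b1, 0.20 for Alas2 and 0.16 for Hba-a1, and the unadjusted limma p of Hbb-b1 was 0.0659. The SD of Alas2 among the AMI arrays of the hippocampus was 0.97 on the log2 scale, against 0.17 among the vehicle arrays. The AMI and vehicle arrays overlapped for each of the 3 probes, whereas they did not overlap for 7.89% of tested hippocampal probes.

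In the cortex the 3 log2 differences were below 0 and none passed. They were -0.47 for Hba-a1 (-1.01 to 0.08, SE 0.24; limma adjusted p = 0.789), -0.24 for Alas2 (-0.85 to 0.36; limma adjusted p = 0.923) and -0.04 for Hbb-b1 (-0.54 to 0.46; limma adjusted p = 0.989). Of 12944 tested cortical probes 0% were called, and 813 (6.28%) had an unadjusted p under 0.05, against 827 by the methods' t-test, with none of the 3 probes among those from limma. The groups overlapped for all 3 probes, and did not for 12.2% of tested cortical probes. The sign of the Hbb-b1 difference turned under median centring (0.00089) and without any 1 of AMI replicate 1, AMI replicate 3 and vehicle replicate 3 (0.087, 0.12 and 0.047), and that of Alas2 without vehicle replicate 3 (0.00073).

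Whether the AMI difference itself differed between tissues was tested as the interaction over 12 arrays. The hippocampal minus cortical difference was 1.07 for Hba-a1 (-0.19 to 2.33), 0.998 for Alas2 (-0.18 to 2.17) and 0.90 for Hbb-b1 (-0.08 to 1.88), and each had a limma adjusted p of 0.9999. Of 12430 probes tested in both tissues 0% were called, and 377 (3.03%) had an unadjusted p under 0.05, again with none of the 3. Without hippocampal AMI replicate 3 the 3 values were 0.63, 0.44 and 0.48.

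Between tissues, Hbb-b1 was higher in the hippocampus than in the cortex. Its mean normalized log2 level was 0.88 ± 0.70 (SD, n = 6) in the hippocampus and 0.17 ± 0.32 (SD, n = 6) in the cortex, a difference of 0.71 (0.22 to 1.20; limma adjusted p = 0.0228) or 1.63-fold. That 1 of the 3 probes passed is to be read against 43.1% of 13677 tested probes that passed in the same comparison. The arrays of the tissues overlapped for all 3 probes, and did not for 22.3% of tested probes. Hbb-b1 no longer passed with the methods' t-test (adjusted p 0.0785), and with limma it did not pass without cortical AMI replicate 1 (limma adjusted p = 0.0585) or 3 (limma adjusted p = 0.0574), and still passed without hippocampal AMI replicate 3 (0.50, limma adjusted p = 0.0366). Hba-a1 differed by 0.17 (-0.46 to 0.81) and Alas2 by 0.11 (-0.48 to 0.70) without passing, and both turned below 0, to -0.047 and -0.18, without hippocampal AMI replicate 3.

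**Figure D2:**
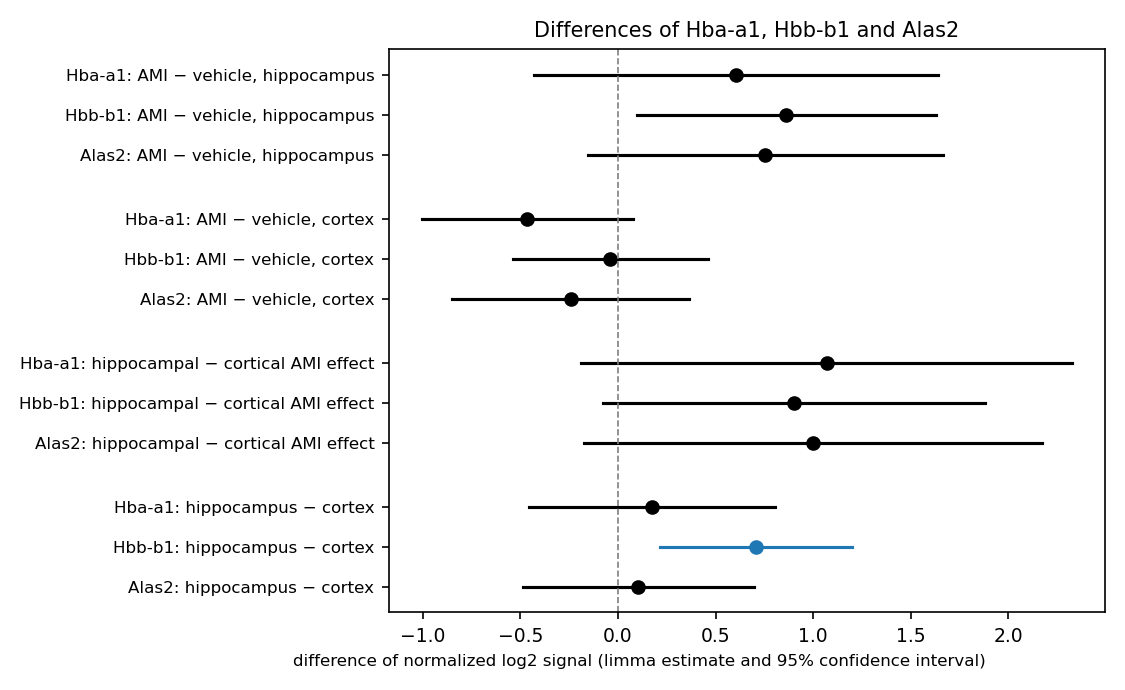
Estimated log2 differences (points) with 95% confidence intervals (lines) for each gene and comparison from limma on z-normalized signals, n = 3 arrays a group. The hippocampal Hbb-b1 interval (0.10 to 1.63) excludes 0 without passing the adjusted threshold, and the difference that passed, in blue, is Hbb-b1 between tissues.

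The 3 probes varied more between replicates than most probes. The residual SD within the 4 groups was 0.63 (log2) for Hba-a1, 0.59 for Alas2 and 0.48 for Hbb-b1, where the median of tested probes was 0.15. These lay at percentiles 99.6, 99.5 and 99.1 of 13677 tested probes. Among probes within 1 log2 unit of the same mean level the percentiles were 99.4, 99.5 and 99.0 in the same order. Without hippocampal AMI replicate 3 the residual SDs were 0.53 for Hba-a1, 0.35 for Alas2 and 0.34 for Hbb-b1, at percentiles 99.3, 96.4 and 95.9.

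**Figure D3:**
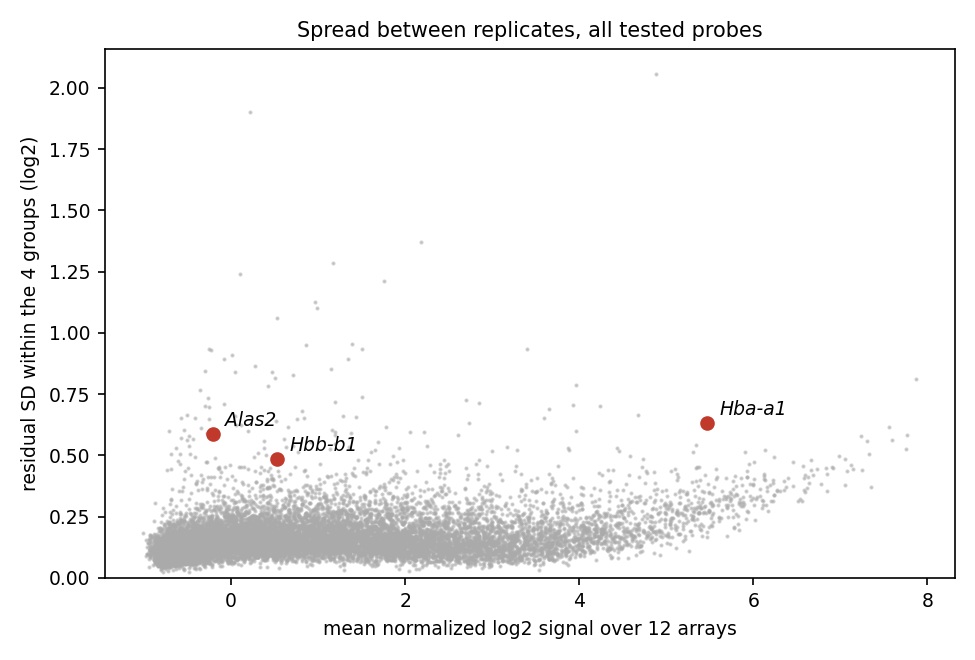
Residual SD within the 4 groups (log2) against mean normalized log2 signal for 13677 tested probes (grey), with the 3 probes in red. Hba-a1, Alas2 and Hbb-b1 lie above most probes of like level.

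Across the 6 hippocampal arrays the 3 probes were positively correlated. Hbb-b1 and Alas2 had the same order on all 6 arrays (Spearman rho = 1, two-sided exact permutation p = 0.00278, adjusted 0.025; Pearson r = 0.95, exact permutation p = 0.00139, the smallest that 6 arrays allow, adjusted 0.0125 over 9 relations). A value of r this high with Hbb-b1 was reached by 0.0532% of tested hippocampal probes. Without the 2 arrays farthest from the median, r was 0.99 over 4 arrays. Without hippocampal AMI replicate 3 it was 0.87 (exact permutation p = 0.0667, adjusted 0.12 with the other relations kept at their 6-array p).

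Hba-a1 correlated with Hbb-b1 in the hippocampus at r = 0.91 (rho = 0.83, exact permutation p = 0.0125 and 0.0583, adjusted 0.05 and 0.0875), and r was 0.97 without the 2 farthest arrays. With Alas2 it correlated at r = 0.81 (rho = 0.83, exact permutation p = 0.0167 and 0.0583, adjusted 0.05 and 0.0875), and again at 0.97 without those 2. Neither passed under 0.05 after adjustment. Without hippocampal AMI replicate 3 the values of r were 0.83 and 0.67.

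In the cortex r was 0.88 for Hba-a1 and Alas2 (rho = 0.89, exact permutation p = 0.0458 and 0.0333), 0.84 for Hbb-b1 and Alas2 (rho = 0.89, exact permutation p = 0.0306 and 0.0333) and 0.72 for Hba-a1 and Hbb-b1 (rho = 0.83, exact permutation p = 0.101 and 0.0583). None passed after adjustment (Pearson 0.0825, 0.0688 and 0.152; Spearman 0.0875 each). Without the 2 farthest arrays they were 0.84, 0.96 and 0.59. As deviations from the treatment means r was 0.91, 0.86 and 0.84 in the same order (permutation adjusted p = 0.045 each). Deviations sum to 0 within a group and were permuted across groups, so these p-values are not exact and may be too small. Arrays share brightness and normalization, whose part in these correlations was not tested. An r with Hba-a1 as high as that of Hbb-b1 was reached by 5.28% of tested cortical probes.

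Between same-numbered hippocampal and cortical arrays r was below 0 for the 3 genes and none passed. It was -0.71 for Hba-a1 (rho = -0.60), -0.60 for Hbb-b1 (rho = -0.54) and -0.38 for Alas2 (rho = -0.43), with exact permutation p of 0.131, 0.229 and 0.576 for r and 0.242, 0.297 and 0.419 for rho (adjusted 0.168, 0.258 and 0.576, and 0.311, 0.334 and 0.419). Without the 2 hippocampal arrays farthest from the median r was -0.48, 0.54 and -0.02. The labels do not say that a number marks 1 mouse.

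**Figure D4:**
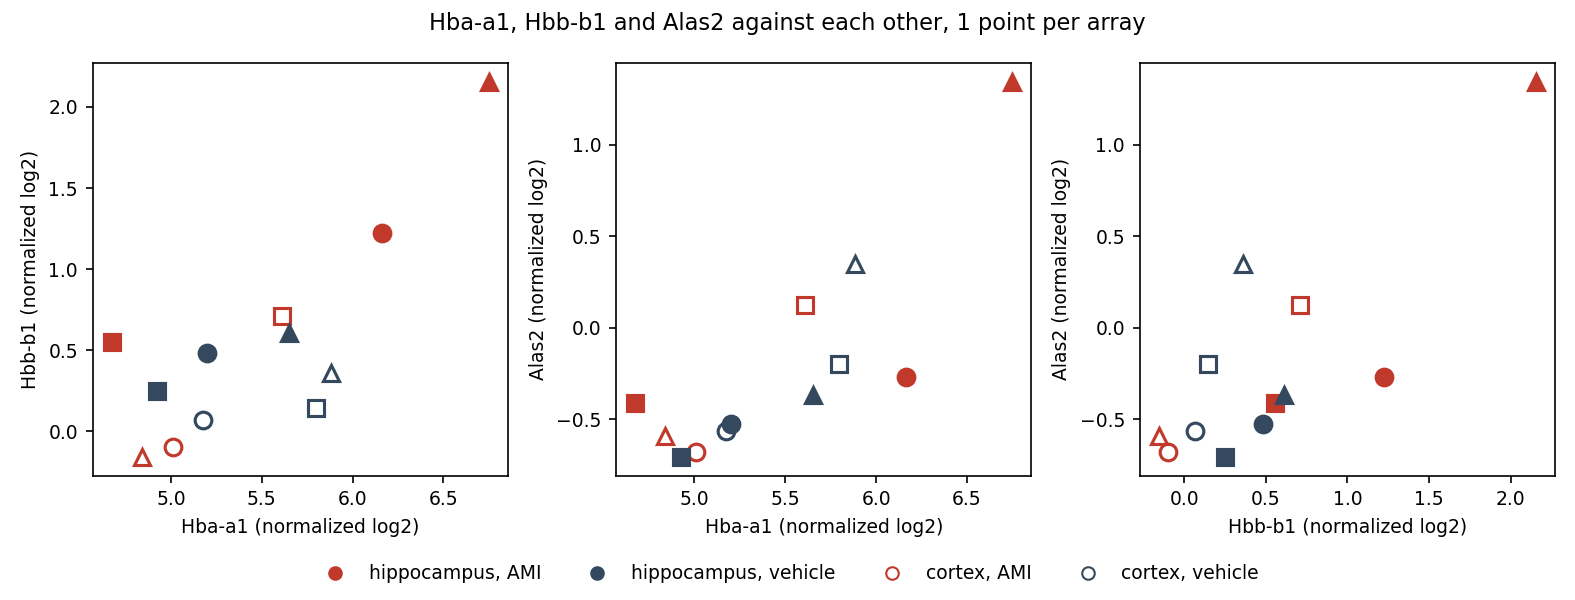
Normalized log2 signal of each pair of genes with 1 point per array, filled for hippocampus and open for cortex, red for AMI and dark blue for vehicle, the symbol giving the replicate. Hippocampal AMI replicate 3 is the point at the top right of each panel.

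The genes whose deviations from the 4 group means over 12 arrays were most like the mean of Hba-a1 and Hbb-b1, among 10980 probes detected on all arrays, were Eng (r = 0.91), Ppm1f (0.90), Ppm1m (0.88), Nadk (0.87), Nubp2 (0.86), Lrrtm3 (0.86), Gats (0.85) and Coq9 (0.85). Eng encodes endoglin, a receptor of vessel endothelium. On hippocampal AMI replicate 3 it deviated by 0.22 (log2), while Hba-a1 deviated by 0.89 and Hbb-b1 by 0.84. Its hippocampal signals were 126, 162 and 199 on the AMI arrays and 123, 166 and 186 on the vehicle arrays. Alas2 correlated with the same globin mean at r = 0.87, and at 0.74 without hippocampal AMI replicate 3. Without that array the 8 genes had r from 0.68 (Coq9) to 0.89 (Nadk), with Eng at 0.87.

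With Alas2, Hbb-b1 correlated in the same way at r = 0.92 and Hba-a1 at 0.80, and at 0.79 and 0.66 without hippocampal AMI replicate 3. Among the other genes most like Alas2 were Igtp (r = 0.91), Snf1lk2 (0.90), Nr4a2 (0.90) and Cacnb3 (0.87). Igtp, an interferon-induced GTPase, gave 76.3, 111 and 198 on the hippocampal AMI arrays and 90.3, 112 and 118 on the vehicle arrays. It was highest on hippocampal AMI replicate 3, and without that array its r was 0.74. The r of Snf1lk2, Nr4a2 and Cacnb3 without that array was 0.80, 0.63 and 0.62. These correlations describe 12 arrays that share normalization, and carry no test.

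Other globin genes gave little signal. Hbb-b2, the other adult beta gene with a probe, was not detected on any array, and its hippocampal signal was 54.9 to 70.7. Hba-x, Hbb-bh1, Hbb-y and Hbq1, globins of the embryo or of unclear role, were not detected on any array. Cygb and Ngb, globins of fibroblast-like cells and neurons, were detected on all arrays by at least 1 probe. Their log2 AMI differences in the hippocampus were -0.03 and 0.08, and neither passed.

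Of the 9 heme synthesis genes 7 were tested in each tissue, and none was called. In the hippocampus 4 had a higher mean after AMI and 3 a lower one, with a median log2 difference of 0.04, where all tested probes had 0.01. Alad, the second enzyme of the pathway, had a log2 difference of -0.46 for hippocampal and -0.45 for cortical arrays, and Alas1 -0.09 and -0.04. Cpox was not detected on any array. Alas2 was the 1 gene of the 7 that was highest on hippocampal AMI replicate 3.

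Of 36 listed red cell genes on the array, 16 were tested in the hippocampus, 17 were tested in the cortex and none was called. In the hippocampus 6 had higher and 10 lower means after AMI (median log2 difference -0.03), and in the cortex 6 and 11 (-0.06, where all tested probes had 0.02). Many of the tested ones, such as Prdx2, Ank1 and Spnb1, are also expressed by neurons. In the hippocampus 3 of 16 were highest on AMI replicate 3, which is 18.8% against 19.0% of all tested probes. Rsad2, an interferon-induced protein that stood in this list, was among them.

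Most red cell genes with narrow expression were not detected, and Slc4a1 had its highest signal on hippocampal AMI replicate 3. Slc4a1, the band 3 anion exchanger of the red cell membrane, gave 71.1, 83.5 and 219.9 on the hippocampal AMI arrays and 56.5, 65.6 and 77.5 on the vehicle arrays. It was detected on 2 of these 6 arrays and so was not tested in the hippocampus. In the cortex it gave 85.8, 124 and 77.7 on the AMI arrays and 68.2, 79.4 and 125 on the vehicle arrays. Eraf, the alpha-haemoglobin stabilizing protein, was detected on hippocampal AMI replicate 3 alone, at 91.8. Hemgn, Bpgm, Kel, Trim10 and Gata1 were not detected on any array.

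Genes of the blood's other cells were mostly not detected. Of 14 neutrophil genes on the array, 1 was tested in the hippocampus and 2 in the cortex. Its defining genes S100a8, S100a9, Ngp and Camp were not detected on any hippocampal array, and S100a8 was detected on 1 cortical array. The platelet gene Ppbp was not detected on any array, and the 4 tested platelet genes averaged -0.52 to -0.40 over the hippocampal AMI arrays and -0.50 to -0.38 over the vehicle arrays on the normalized log2 scale. Of 11 lymphocyte genes 1 was tested in the hippocampus, Lck. Its normalized log2 levels were -0.367, -0.150 and -0.136 on the AMI arrays and -0.567, -0.439 and -0.370 on the vehicle arrays. AMI replicate 3 was thus highest by little. The log2 AMI difference of Lck was 0.24, and 0.20 without AMI replicate 3, and it was not called. Its unadjusted limma p was under 0.05, as for 2.35% of tested hippocampal probes. Its AMI and vehicle arrays did not overlap, though narrowly (-0.367 against -0.370), as for 7.89% of these probes. Cd3d, Cd3g and Cd8a were not detected on any array.

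Brain endothelial genes were detected well. Of 13 tested in the hippocampus, 7 (53.8%) were highest on AMI replicate 3, against 19.0% of all tested probes. Their mean normalized log2 level was 1.21, 1.17 and 1.45 on the AMI arrays and 1.03, 1.16 and 1.29 on the vehicle arrays. Ly6a, a membrane protein of endothelium, had a log2 AMI difference of 0.37, Ly6c1 of 0.06, Slco1a4, a blood-brain barrier transporter, of 0.12, and Cldn5, the tight junction protein, of -0.01, and none was called. Of 7 tested vessel wall genes, 3 (42.9%) were highest on AMI replicate 3. Their mean level was highest on vehicle replicate 3 (1.03), with AMI replicate 3 next (0.66). The part of vessel content in the globin values was not tested.

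**Figure D5:**
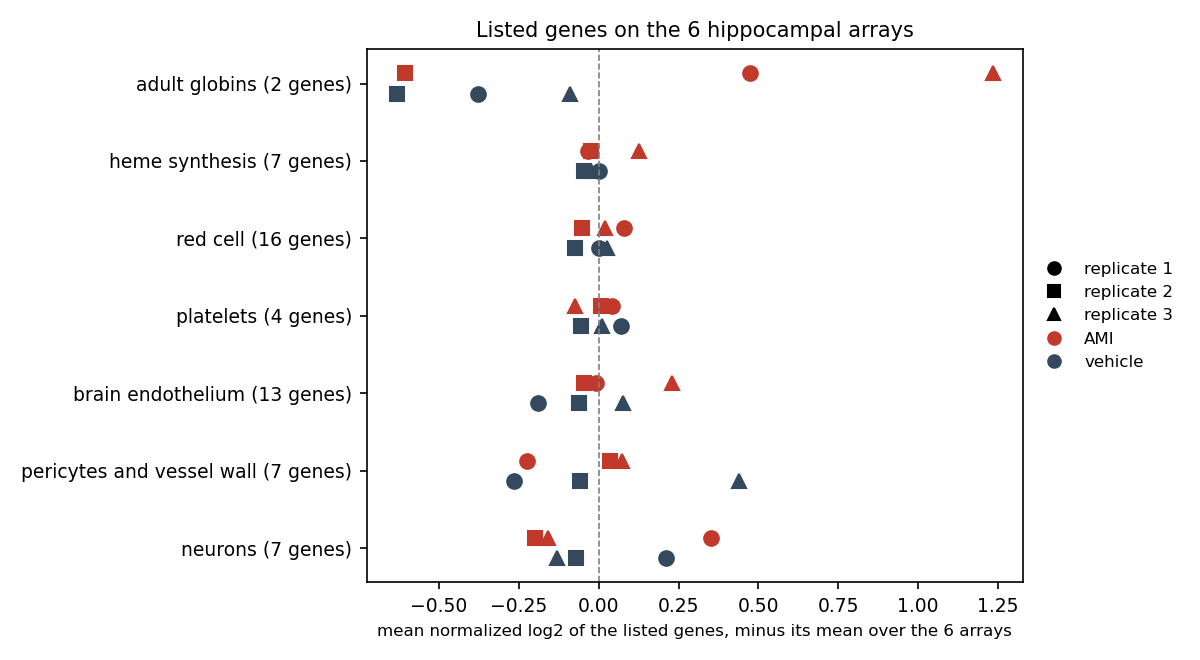
Mean normalized log2 level of the tested genes of each list on the 6 hippocampal arrays, as the difference from its mean over those arrays, with AMI in red, vehicle in dark blue and the symbol giving the replicate. Of the lists shown, the globins spread widest, with AMI replicate 3 highest, while the red cell, heme synthesis and platelet lists spread little. The globin mean is over 2 genes, fewer than in the other lists shown. In normalized log2 level the globins ran from 2.59 to 4.45. The choroid plexus and meninges list, not shown, ran wider, from 0.89 to 2.90, and was highest on vehicle replicate 3.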

How the data were processed

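RNA from hippocampus and cortex was hybridised to 12 beadchip arrays. The authors deposited, per probe and array, the mean bead intensity as read, neither normalized nor corrected for background, and the scanner software's detection p-value. Per the file headers the hippocampal table came from BSGX 3.4.0 and the cortical table from GSGX 1.1.1. The submitters' processing notes name BeadStudio 3.4 and GenomeStudio 1.1.1. Log2 intensities were z-normalized per array and put on a common SD (1.60, the average over arrays). A probe entered a tissue's test if its detection p was at most 0.05 on 3 or more of 6 arrays. Tests used limma 3.58.1 in R 4.3.3 (lmFit, eBayes, Benjamini-Hochberg), with treatment as the term within a tissue and 4 groups across tissues. Fold changes of dim probes are understated, because background was not subtracted, and 3 arrays a group limit precision. Correlations across arrays used two-sided exact permutation tests in Python 3.11.15 (scipy 1.17.1), which are not exact for deviations from treatment means. The fit was also run on simulated arrays drawn independently of each other. That simulation lacks the shared deviations of same-numbered arrays given below, so it cannot show how the fit behaves with them.

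Same-numbered AMI and vehicle arrays deviated together in the hippocampus (r = 0.611, 0.296 and 0.293 for replicates 1 to 3) and not throughout in the cortex (-0.061, 0.329 and 0.333). The labels give the numbers, not what they share. Alternatives were other normalizations (quantile, median centring, neqc with offset 16), other detection filters, other variance models, array weights, the methods' t-test, the methods' cutoffs, a replicate block, 1 fit of all arrays and leaving out each array. Genes named are the 3 chosen, the globin, heme and red cell lists, the first 4 of each other list, and the genes most alike; some of these are not reported here. For a gene with several tested probes the brightest was counted. The genes, lists and tests were chosen with earlier results of these data known. Omissions of hippocampal AMI replicate 3 from the spread, the likeness and the lists were added after seeing the data.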

Additional observations from a re-analysis of the deposited data

How the results depend on the processing

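The log2 differences of the 3 probes kept their direction and side of the threshold in 207 of 218 alternatives, turned sign in 8 and lost the call in 3. Much of this count was fixed in advance. The other filters, the other variance models, the methods' t-test and the replicate block left the log2 difference itself unchanged, so its sign could not turn. For treatment and interaction the main adjusted p was 0.789 or more, far from the threshold. Within the hippocampus and for the interaction every alternative that was run kept the sign of all 3. Leaving out 1 array moved the hippocampal difference of Hba-a1 between 0.16 and 1.20, of Hbb-b1 between 0.44 and 1.24 and of Alas2 between 0.20 and 1.07. With an unadjusted p under 0.05 the number of the 3 probes called in the hippocampus was 1. In the cortex Hbb-b1 turned to 0.00089 with median centring, and to 0.087, 0.12 and 0.047 without AMI replicate 1, AMI replicate 3 and vehicle replicate 3 (range -0.32 to 0.12 when 1 array was left out), and Alas2 to 0.00073 without vehicle replicate 3 (range -0.495 to 0.00073). Between tissues the number called was 0 with the methods' t-test (Hbb-b1 adjusted p = 0.0785) and 0 to 1 when 1 array was left out. There Hba-a1 turned to -0.047 (range -0.047 to 0.47) and Alas2 to -0.18 (range -0.18 to 0.26) without hippocampal AMI replicate 3, and Alas2 to -0.0019 without cortical vehicle replicate 1. The causes were not tested. With the replicate block no call at the adjusted threshold changed: the hippocampal limma adjusted p was 0.609 for Hba-a1, 0.566 for Hbb-b1 and 0.608 for Alas2, and the number of all hippocampal probes at an unadjusted p under 0.05 went from 309 to 1063. A block for the chip was not run, because the headers used here name no chip. Alas2 did not pass the stricter filter (detection p at most 0.01 on every array of a tissue), so it has no value there.

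Of the correlations, Hba-a1 with Alas2 in the hippocampus passed with quantile normalization (r = 0.94) and unnormalized signals (0.94), and Hba-a1 with Hbb-b1 there with unnormalized signals (0.94) and deviations from treatment means (0.94). In the cortex Hba-a1 with Hbb-b1 passed with quantile normalization (0.94), median centring (0.91), unnormalized signals (0.94) and deviations (0.84). There Hba-a1 with Alas2 passed with unnormalized signals (0.84) and deviations (0.91), and Hbb-b1 with Alas2 with both (0.87 and 0.86). In either tissue the permutation p of deviations is not exact, as they sum to 0 within a group and were permuted across groups. When 1 hippocampal array was left out, r ranged from 0.83 to 0.97 for Hba-a1 with Hbb-b1, from 0.67 to 0.91 for Hba-a1 with Alas2, and from 0.87 to 0.9995 for Hbb-b1 with Alas2. Without AMI replicate 2 both Hba-a1 correlations passed (0.97 and 0.88, adjusted exact permutation p = 0.0375 each). Over 5 arrays Hbb-b1 with Alas2 could not fall under the threshold, since the smallest exact permutation p (0.00833) gives an adjusted 0.05, and this was reached in 5 of 6 omissions and not without AMI replicate 3. The log2 range over the arrays of a tissue changed by more than 1 SD for Hba-a1 in the cortex with median centring (1.68, from 1.04) and for Alas2 with neqc in the hippocampus (2.97, from 2.05) and the cortex (1.85, from 1.02), as neqc subtracts background. The residual SD of Alas2 fell to 0.35 without hippocampal AMI replicate 3.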

Other observations

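Lcn2, a secreted protein of neutrophils and of reactive glia, was named after its values were seen. Its signals on the hippocampal AMI arrays were 61.8, 84.1 and 268, and on the vehicle arrays 60.9, 66.2 and 58.0, so that the array with the highest globin signals was also the 1 hippocampal array on which Lcn2 was detected. In the cortex Lcn2 gave 129, 104 and 63.4 on the AMI arrays and 66.5, 66.8 and 109.6 on the vehicle arrays. Of other listed genes, Rsad2, an interferon-induced protein that stood in the red cell list, had a log2 AMI difference of 0.46 in the hippocampus (limma unadjusted p = 0.0487, adjusted p = 0.9996), and its highest hippocampal array was AMI replicate 3. For choroid plexus and meningeal genes, on the normalized log2 scale their mean was 1.13 on hippocampal AMI replicate 3 and 2.90 on vehicle replicate 3, and 0 of 12 tested were highest on AMI replicate 3. What these genes share with the globin values was not tested.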
